A study of Mus musculus with 20 samples.

Results

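Mast cells are tissue leukocytes that store proteases and histamine in granules and release them when IgE bound to their surface is cross-linked. Their transcripts were followed here through 10 genes chosen for their known functions out of the 52783 genes in the deposited table. Cpa3, Cma1, Mcpt4, Tpsb2 and Tpsab1 encode granule proteases, Fcer1a and Ms4a2 encode the alpha and beta chains of the high-affinity IgE receptor, Hdc encodes the enzyme that makes histamine, Kit encodes the receptor on which mast cell survival depends, and Kitl encodes its ligand, stem cell factor. All 10 genes were in the table under these symbols.

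The libraries came from tumours of female BALB/cJ mice given 1000000 cells of the 66cl4 or 67NR line in the mammary fat pad. Both are established mouse mammary tumour lines of the 4T1 family, and 66cl4 metastasises in this host whereas 67NR does not. Each of 5 tumours per line was dissociated and sorted by viability and surface CD45, the pan-leukocyte protein encoded by Ptprc, into CD45+ and CD45- cells, and each fraction gave 1 mRNA library. The 4 groups, 66cl4 CD45+, 66cl4 CD45-, 67NR CD45+ and 67NR CD45-, therefore held 5 libraries each, from 66cl4 animals 3 to 7 and from 67NR animals 1, 4, 5, 6 and 7. Every animal carried a tumour, so no tumour-free tissue entered the comparisons, and each tumour type was 1 injected line.

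In mice the granule proteases fall into carboxypeptidase A3, the chymases (Cma1, Mcpt4) and the tryptases (Tpsb2, Tpsab1), and connective tissue mast cells hold all of these at once. The alpha chain of the IgE receptor binds IgE and the beta chain amplifies the signal that runs through Lyn and Syk kinases. Stem cell factor is made by fibroblasts, endothelial cells and other stromal cells, and Kit is also carried by blood progenitors and some lymphoid cells, while Hdc is also transcribed in basophils and in neutrophils and their precursors.

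Ptprc separated the fractions, with 15890 to 28449 normalised counts in the 10 CD45+ libraries and 10.6 to 473 in the 10 CD45- libraries. A normalised count is the library's count divided by its DESeq2 size factor over all 20 libraries. The recorded cell type of 66cl4 animals 5 and 6 contradicted the fraction in the sample title. Their libraries were grouped by title, and Ptprc stood at 17697 and 20442 in those titled CD45+ against 138 and 40.4 in those titled CD45-. The libraries summed to between 12959951 and 28080226 counts, so that a floor of 3 counts corresponded to 1.87 to 4.68 normalised counts depending on the library. Of markers shared with basophils, Prss34 reached at most 3 counts in any library. Mcpt8, a basophil protease, averaged 36.8 normalised counts in 66cl4 CD45+ and 15.8 in 67NR CD45+ libraries (edgeR adjusted p = 0.135). The summed basophil markers, which include Cd200r3 and Cyp11a1, were lower in 66cl4 tumours. They ran from 106 to 160 normalised counts over the 66cl4 and from 293 to 683 over the 67NR CD45+ libraries. The part of basophils in the member results was not tested.

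GATA factors are known regulators of mast cell genes, and the promoters of the proteases and IgE receptor chains are shown because these genes moved together in the comparisons that follow. RefSeq start sites on GRCm38.p6 were available for 8 of the 10 genes, all but Tpsb2 and Tpsab1. The 250 bases before the start were searched on both strands for AGATAA, with its variants AGATAG at the last base, TGATAA at the first base and TGATAG at both, and 6 of the 8 promoters held at least 1 match against 27.1% of 27025 mouse promoters of that length. The Ms4a2 promoter held 3 matches, a number of 2 or more being found in 6.69% of all promoters, while Hdc held 1 and Kit and Kitl held none. The E-box letters CACATG, or on the other strand CATGTG, occurred in the Fcer1a promoter alone among the 8, against 12.2% of all promoters. Such a match describes letters in this window and not binding. Hdc, whose promoter held a match too, moved the opposite way in CD45+ cells, and any part of GATA factors in the changes was not tested. The sequences of 5 genes, all on the minus strand, read 5′ to 3′ in the direction of transcription, with the GATA letters of either strand in capitals. They lie at chr3:20242182-20242431 for Cpa3, chr14:55944676-55944925 for Cma1, chr14:56062311-56062560 for Mcpt4, chr1:173227230-173227479 for Fcer1a and chr19:11623720-11623969 for Ms4a2.
Cpa3: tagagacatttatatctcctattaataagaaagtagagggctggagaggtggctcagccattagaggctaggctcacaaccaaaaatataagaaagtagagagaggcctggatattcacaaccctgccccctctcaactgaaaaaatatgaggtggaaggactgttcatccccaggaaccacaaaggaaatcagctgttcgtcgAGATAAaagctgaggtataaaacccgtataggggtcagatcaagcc
Cma1: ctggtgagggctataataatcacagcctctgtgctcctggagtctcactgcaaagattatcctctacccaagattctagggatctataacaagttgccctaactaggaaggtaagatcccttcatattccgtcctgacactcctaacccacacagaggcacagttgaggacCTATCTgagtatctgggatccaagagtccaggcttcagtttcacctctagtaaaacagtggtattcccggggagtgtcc
Mcpt4: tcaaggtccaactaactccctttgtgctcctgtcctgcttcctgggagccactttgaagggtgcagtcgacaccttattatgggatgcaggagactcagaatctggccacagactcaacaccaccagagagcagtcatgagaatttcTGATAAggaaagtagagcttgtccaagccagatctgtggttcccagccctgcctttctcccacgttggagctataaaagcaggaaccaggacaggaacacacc
Fcer1a: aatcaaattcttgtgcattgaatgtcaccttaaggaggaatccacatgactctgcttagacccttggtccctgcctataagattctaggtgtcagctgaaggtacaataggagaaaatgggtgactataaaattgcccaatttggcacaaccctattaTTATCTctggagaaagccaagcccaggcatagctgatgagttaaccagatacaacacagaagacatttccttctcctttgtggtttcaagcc
Ms4a2: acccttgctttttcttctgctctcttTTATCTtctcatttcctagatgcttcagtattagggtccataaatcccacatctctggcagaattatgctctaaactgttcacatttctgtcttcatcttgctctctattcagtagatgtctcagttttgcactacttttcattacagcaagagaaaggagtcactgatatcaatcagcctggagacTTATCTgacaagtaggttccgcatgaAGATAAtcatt
The first base of the match lay 46 bases before the start in Cpa3, 79 in Cma1, 103 in Mcpt4 and 92 in Fcer1a, and those in Ms4a2 lay 224, 37 and 11 bases before it.

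Some of these genes have close relatives, which bears on how reads were shared between them. On GRCm38 (GENCODE M21) Cma1 and Mcpt4 lie 115 kb apart on chromosome 14, and Tpsb2 (chr17:25366305-25369098, plus strand) and Tpsab1 (chr17:25343245-25345562, minus strand) lie 20.7 kb apart. The longest identical stretch in the coding sequences of both tryptases was 39 bases, shown here because it is where their reads could be exchanged.
Tpsb2 and Tpsab1: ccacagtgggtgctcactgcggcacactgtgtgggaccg
Of all 31-base stretches in a gene's transcripts, the share found in another gene was 0.557% for Tpsb2, 0.419% for Tpsab1, 10.6% for Cma1 and 12.2% for Mcpt4, the last mostly with Cma2. Cpa3, Fcer1a, Kit and Kitl shared no such stretch with another gene of this annotation, which may differ from the one behind the deposited counts.

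The proteases were the most abundant mast cell transcripts in 67NR CD45+ cells, with levels compared between genes as TPM (transcript abundance corrected for length) on the longest annotated protein-coding transcript. In that group Mcpt4 stood at 512 ± 101 TPM (SD, n = 5), Cma1 at 438 ± 74.7 and Cpa3 at 429 ± 78.3. Tpsb2 followed at 216 ± 64.9, Tpsab1 at 159 ± 65.2 and Fcer1a at 60.1 ± 13.1 TPM, then Kitl at 46.2 ± 25.4, Hdc at 40.1 ± 23.6, Kit at 9.68 ± 2.24 and Ms4a2 at 5.57 ± 1.22. Within this order the libraries of neighbouring genes overlapped at every step except from Cpa3 to Tpsb2. In 66cl4 CD45+ cells the order began instead with Hdc at 191 ± 89.4 TPM, above every other member in every library and without overlap. Cma1 at 59.0 ± 27.7, Cpa3 at 55.3 ± 22.5, Mcpt4 at 32.8 ± 19.5 and Tpsb2 at 19.6 ± 12.04 TPM came next with overlapping libraries. Kit at 7.60 ± 3.08 then stood beside Tpsab1 at 5.72 ± 4.87 and Fcer1a at 5.71 ± 2.09 TPM, and Kitl at 3.27 ± 1.298 stood above Ms4a2 at 0.935 ± 0.31 without overlap. In CD45- cells of both tumours Kitl led, at 35.5 ± 5.44 TPM in 66cl4 tumours, where no other member came near it, and at 191 ± 18.8 TPM in 67NR tumours, where its libraries overlapped those of Mcpt4 at 147 ± 182 TPM.

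**Figure D1:**
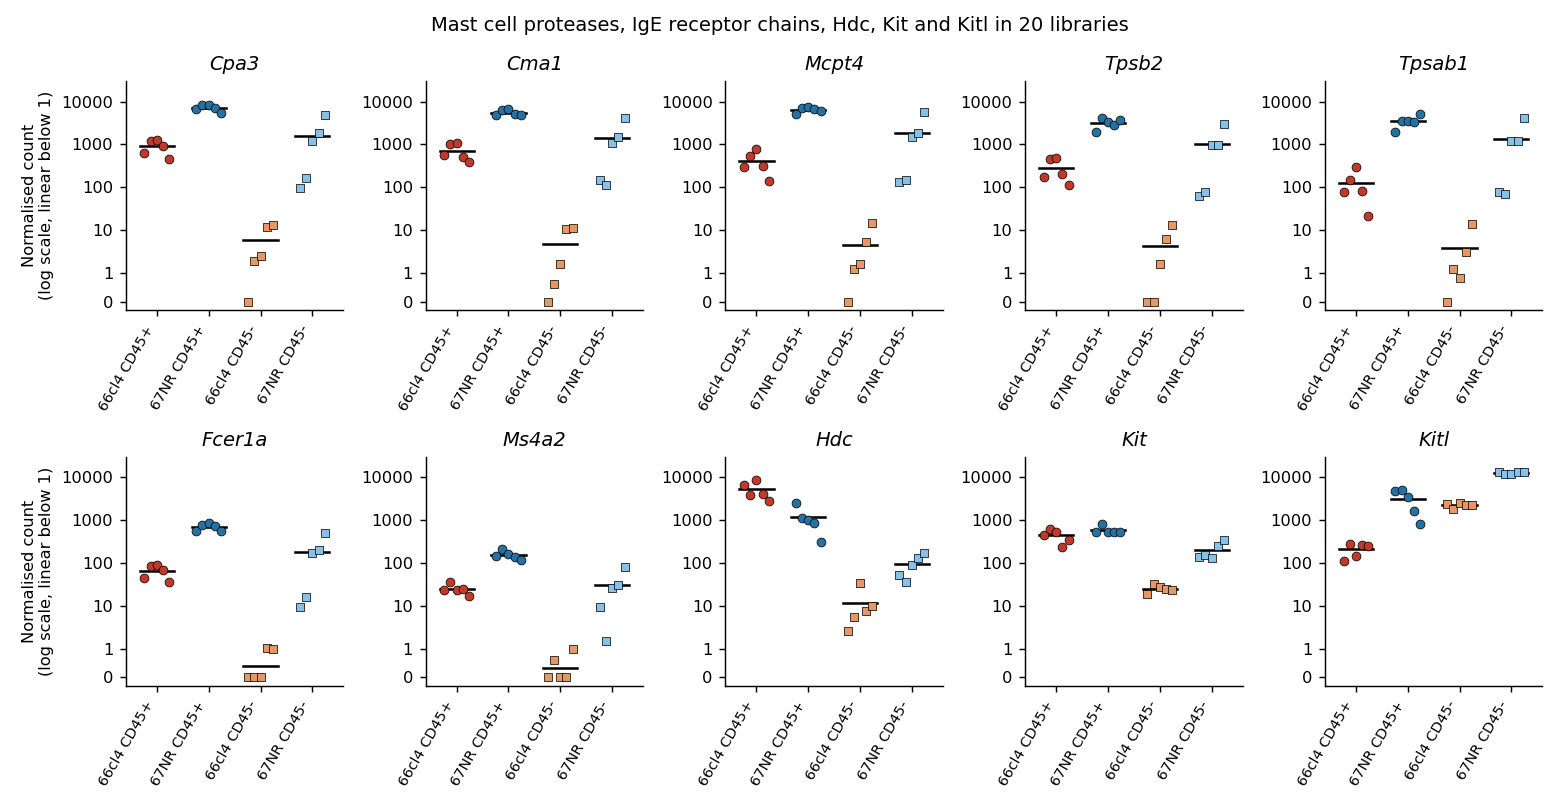
Normalised counts of the 10 genes (axis logarithmic above 1 and linear below) in the 4 groups, each point 1 library and each bar the mean of 5. The proteases and IgE receptor chains sit lower in 66cl4 than in 67NR CD45+ libraries, Hdc sits higher, Kit overlaps, and the 67NR CD45- libraries spread widely, from 96.5 to 4736 for Cpa3.

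Immune cells of the metastatic and the non-metastatic tumour were compared first. Of the 10 genes, 8 fell and 1, Hdc, rose in 66cl4 relative to 67NR CD45+ cells, where 6.82% of 14676 genes tested fell and 5.01% rose (edgeR quasi-likelihood test, Benjamini-Hochberg adjusted p below 0.05 and more than 1 on the log2 scale). The members' median log2 change was -3.18, against 0.01 over all genes tested. The same 9 genes had libraries that did not overlap between tumours, which was the case for 15.1% of genes tested, and each of the 9 was called in all 10 fits that left out 1 library. In bulk RNA of sorted cells, fewer cells of a type and less RNA per cell cannot be told apart.

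All 5 granule proteases fell. Carboxypeptidase A3, Cpa3, was counted at 638, 1223, 1286, 942 and 450.5 normalised counts in 66cl4 animals 3 to 7, and at 6605, 8248, 8397, 7149 and 5432 in 67NR animals 1, 4, 5, 6 and 7. Even the lowest 67NR library held several times the Cpa3 of the highest 66cl4 library. The mean was 7.89-fold lower in 66cl4 tumours, a log2 change of -2.97 ± 0.28 (SE, adjusted p = 6.94e-05). The chymase Cma1 stood at 556, 1025, 1100.2, 517 and 398 in 66cl4 and at 4906, 6343, 6548, 4986 and 4742 in 67NR tumours, in the same animals and order. It was 7.65-fold lower, with a log2 change of -2.93 ± 0.28 (adjusted p = 8.66e-05), and again the groups stood apart.

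Mcpt4, the chymase whose cleavage specificity resembles that of the single human chymase, was reduced further. Its normalised counts were 295, 533, 768, 312 and 144 in 66cl4 and 5079, 7173, 7625, 6547 and 6011 in 67NR CD45+ libraries. The means differed 15.8-fold and the log2 change was -3.97 ± 0.39 (adjusted p = 0.000139). The tryptases showed the same direction. Tpsb2 was at 171, 451, 473, 206 and 116 normalised counts in the 66cl4 libraries and at 1985, 4091, 3282, 2834 and 3645 in those of 67NR, 11.2-fold lower, with a log2 change of -3.46 ± 0.40 (adjusted p = 0.00034). Tpsab1 was at 76.5, 147, 301, 81.0 and 21.1 in 66cl4 and at 1901, 3437, 3426, 3280 and 5241 in 67NR libraries. With a 27.6-fold difference and a log2 change of -4.76 ± 0.60 (adjusted p = 0.000526), Tpsab1 had the largest fold of the 10 genes in this comparison, and its groups stood far apart. Without 66cl4 animal 5 the Tpsab1 change was -5.38.

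Both chains particular to the IgE receptor followed the proteases. Fcer1a was at 44.5, 84.1, 88.7, 70.5 and 35.5 normalised counts in 66cl4 and at 568, 753, 866, 714 and 544 in 67NR CD45+ libraries, 10.7-fold lower, with a log2 change of -3.40 ± 0.26 (adjusted p = 1.55e-05). Ms4a2 was at 23.6, 36.3, 23.1, 25.3 and 16.9 in 66cl4 and at 142, 207, 159, 140.2 and 120.4 in 67NR libraries. It was 6.13-fold lower, with a log2 change of -2.60 ± 0.24 (adjusted p = 6.07e-05), and neither chain had overlapping groups. Signalling genes downstream of the receptor were not called with these chains. In bulk CD45+ RNA their transcripts in mast cells cannot be separated from those in other leukocytes. None of 16 IgE receptor signalling genes passed the call, their log2 changes ranged from -0.27 for Cblb to 0.71 for Btk, and their median was 0.31. Fcer1g, the gamma chain that IgE receptors share with other Fc receptors of myeloid cells, averaged 23779 normalised counts in 66cl4 and 21678 in 67NR libraries (log2 change 0.15, adjusted p = 0.596).

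**Figure D2:**
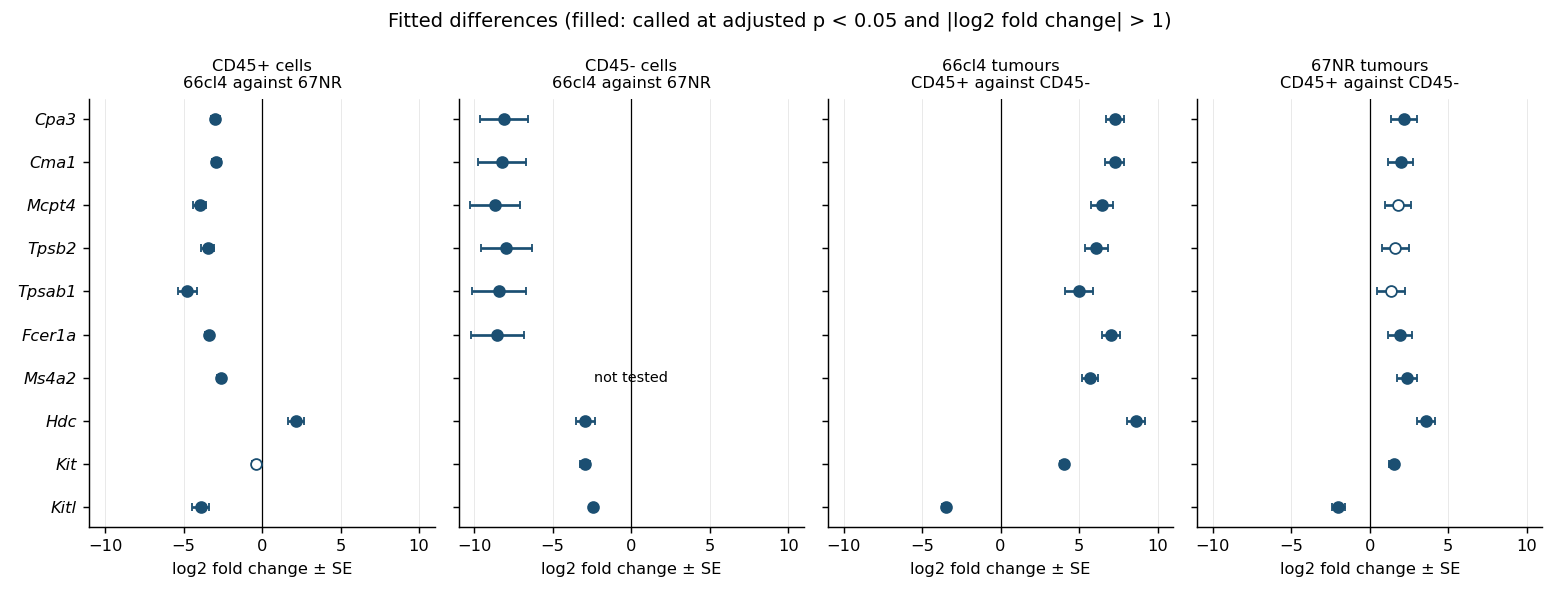
Log2 fold change with its standard error for each gene in the 4 comparisons, with filled points for genes that passed the call. In CD45+ cells 8 genes lie below 0 as filled points, Hdc lies above it at 2.14 and Kit is open at -0.40; Ms4a2 was not tested between the CD45- groups.

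Hdc moved the opposite way to the proteases. The 66cl4 CD45+ libraries of animals 3 to 7 held 6512, 3809, 8809, 4016 and 2747 normalised counts and the 67NR libraries of animals 1, 4, 5, 6 and 7 held 2522, 1111, 1002, 868 and 312. The lowest 66cl4 library lay just above the highest 67NR library, so the groups did not overlap. The mean was 4.45-fold higher in 66cl4 tumours, a log2 change of 2.14 ± 0.52 (adjusted p = 0.0142). Without 66cl4 animals 5 and 6, whose recorded cell types contradict their titles, the log2 change was 1.90 and the call was lost (adjusted p = 0.0535).

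Neutrophil markers moved with Hdc. Of 10 such genes 9 were tested, 5 rose and none fell, with log2 changes of 1.43 for Csf3r (adjusted p = 0.00277) and 2.01 for Cxcr2 (adjusted p = 0.00724), both receptors that guide neutrophil production and movement. The summed level of the 10 markers ran from 44355 to 125374 normalised counts over the 66cl4 libraries and from 7225 to 52470 over the 67NR libraries. Within each tumour the libraries ranked alike by Hdc and by this sum: animals 5, 3, 6, 4 and 7 from high to low in 66cl4, and animals 1, 4, 5, 6 and 7 in 67NR tumours. The 67NR library with the most Hdc, animal 1, also had the most neutrophil marker counts, at 52470. The part of these cells in the Hdc difference was not tested.

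**Figure D3:**
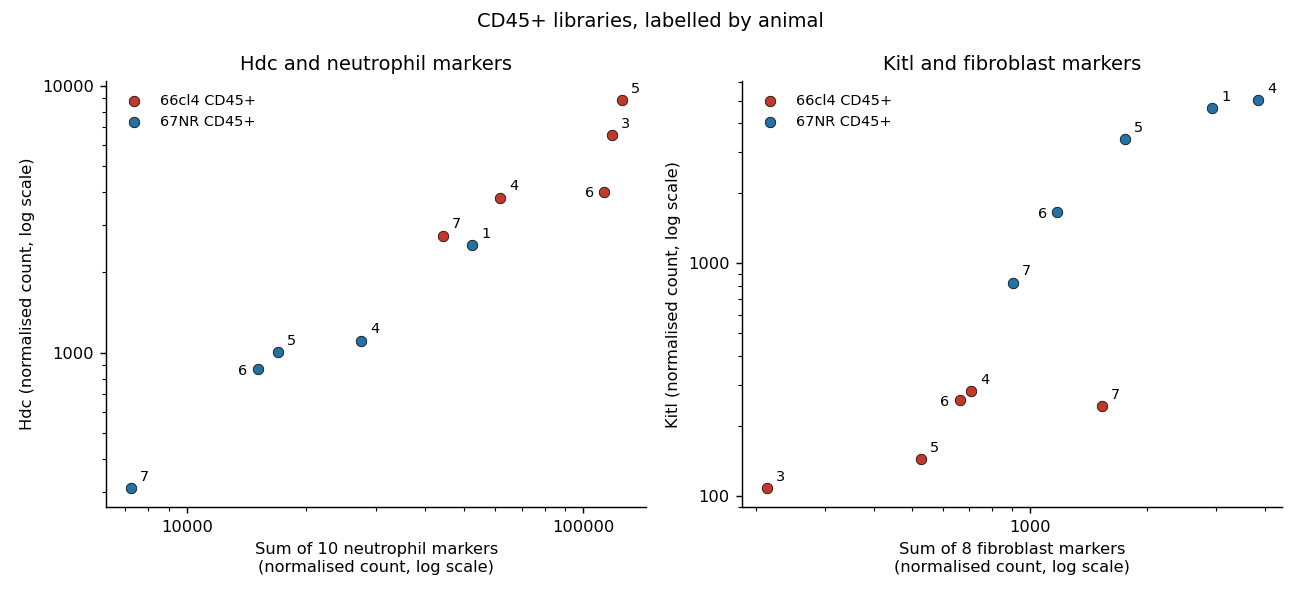
CD45+ libraries by animal, with Hdc against the sum of 10 neutrophil markers and Kitl against the sum of 8 fibroblast markers, as normalised counts on logarithmic axes. Hdc ranks with the neutrophil sum inside each tumour, and Kitl ranks with the fibroblast sum inside 67NR but not inside 66cl4 tumours.

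Kit was the one member whose CD45+ level was not called between tumours. It stood at 449, 635, 519, 237 and 351 normalised counts in 66cl4 and at 523, 801, 531, 524 and 538 in 67NR libraries. Only 66cl4 animal 4 entered the 67NR range, and 67NR animal 4, at 801, stood apart from the other 4 libraries of its group. The mean was 1.33-fold lower in 66cl4 tumours, with a log2 change of -0.40 ± 0.24 (adjusted p = 0.258; exact two-sided permutation p = 0.167), which does not show that the levels were the same. None of 13 Kit signalling genes passed the call, and their log2 changes ranged from -0.81 for Socs1 to 0.39 for Ptpn6 with a median of -0.07. Here, too, bulk CD45+ RNA does not separate mast cells from other leukocytes.

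Kitl, the ligand, was far lower in the 66cl4 CD45+ fraction. It was at 108, 283, 145, 258 and 244 normalised counts in 66cl4 and at 4650, 5011, 3411, 1655 and 827 in 67NR libraries. The 67NR libraries spread over a wide range, yet the lowest of them, animal 7, was above every 66cl4 library. The difference was 14.98-fold, with a log2 change of -3.90 ± 0.53 (adjusted p = 0.000767). Fibroblast markers in this immune fraction moved with it. Of 8 such genes 3 fell, Dpt by 5.43, Lum by 2.34 and Dcn by 1.76 on the log2 scale, none rose, and their summed level ran from 213 to 1533 normalised counts over the 66cl4 libraries and from 905 to 3835 over the 67NR libraries. In 67NR tumours animals 4, 1, 5, 6 and 7 ranked alike by Kitl and by this sum, whereas in 66cl4 tumours animal 7 had the most fibroblast counts, at 1533, and stood below animals 4 and 6 for Kitl. The part of such cells in the Kitl difference was not tested.

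The mast cell genes did not fall by the same factor, which was examined as each gene's count as a percentage of the Cpa3 count of the same library. Relative to Cpa3, 6 of the 8 other mast cell genes differed between tumours at an unadjusted exact two-sided permutation p below 0.05, where 5 against 5 libraries cannot go below 0.00794. Hdc and Kit were among the 6, and their ratios follow from the comparison above, since any gene that did not fall with Cpa3 would tend to pass. The share of all genes that pass this test was not computed. Cma1 kept pace with Cpa3, with a median of 85.5% in 66cl4 and 76.9% in 67NR libraries and a log2 difference of 0.03 (exact p = 0.873). Mcpt4 stood at 43.6% (range 32.0 to 59.7) in 66cl4 and at 90.8% (76.9 to 111) in 67NR libraries, a log2 difference of -1.12 without overlap (exact p = 0.00794). The chymases thus parted in these libraries, although they are neighbours on chromosome 14.

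Tpsab1 showed the largest shortfall relative to Cpa3 among the proteases. Its median was 12.1% (4.78 to 23.4) of the Cpa3 count in 66cl4 and 41.7% (28.8 to 96.5) in 67NR libraries, a log2 difference of -2.12 (exact p = 0.00794). The other tryptase, Tpsb2, was at 26.9% against 39.6% with overlapping libraries and a log2 difference of -0.58 (exact p = 0.0397). Fcer1a stood at 7.07% (6.91 to 7.97) against 10.0% (8.61 to 10.3), a log2 difference of -0.40 (exact p = 0.00794), and Ms4a2 at 3.01% against 2.16%, a log2 difference of 0.46 (exact p = 0.0714). Measured against the sum of the 5 proteases in place of Cpa3, the Fcer1a difference turned to 0.06 (exact p = 0.667) and that of Tpsb2 to -0.12 (exact p = 0.405), while those of Cma1 and Ms4a2 became 0.49 and 0.92 (exact p = 0.00794 and 0.0238). With a pseudocount of 5 Ms4a2 also passed (0.65, exact p = 0.0317), and without 66cl4 animals 5 and 6 Ms4a2 passed (0.72, exact p = 0.0179) and Tpsb2 did not (-0.56, exact p = 0.0893). Tpsb2 passed in only 3 of the 10 tests that left out 1 library, Cma1 passed without 66cl4 animal 6 (0.16, exact p = 0.0476) and Ms4a2 without 66cl4 animal 5 (0.63, exact p = 0.00794).

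Relative to Cpa3, Hdc and Kit stood higher in 66cl4 libraries, since Cpa3 fell while Hdc rose and Kit was not called. Kit itself did not rise, its mean being 1.33-fold lower in 66cl4 tumours. Hdc was at 609% (311 to 1019) of the Cpa3 count in 66cl4 and 12.1% (5.75 to 38.2) in 67NR libraries, and Kit at 52.0% (25.2 to 77.9) against 7.93% (6.32 to 9.91). The log2 differences were 5.39 and 2.60, both with an exact p of 0.00794 and no overlap.

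**Figure D4:**
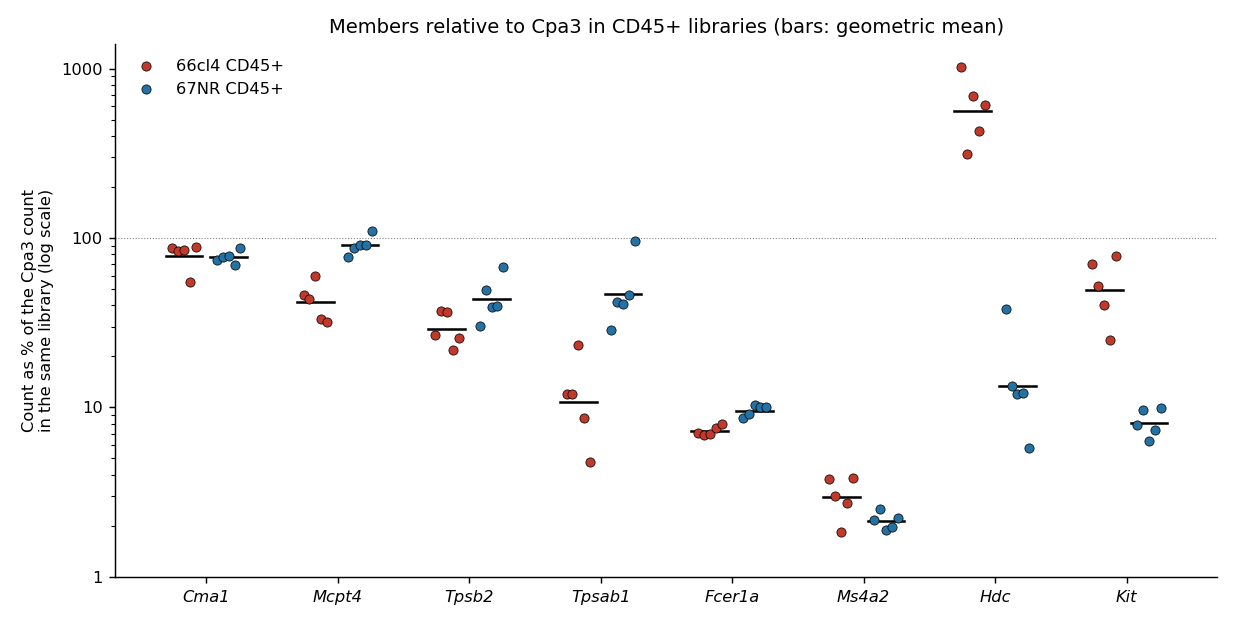
Count of each mast cell gene as a percentage of the Cpa3 count in the same CD45+ library (log axis), points being libraries and bars geometric means. Cma1 overlaps between tumours, Mcpt4 and Tpsab1 sit lower in 66cl4 tumours, and Hdc and Kit sit higher.

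Other mast cell genes, from lists of pathway members, gave a mixed picture in the same comparison. Of 12 further granule genes 7 were tested, 3 fell and 1 rose, with a median log2 change of -1.13. Tph1, which starts serotonin synthesis, fell by 3.12 (adjusted p = 0.000247), Slc18a2, which loads amines into granules, by 1.89 (adjusted p = 0.000569), and Hpgds, which makes prostaglandin D2, by 1.32 (adjusted p = 0.000356), whereas Srgn, the granule proteoglycan core found in many leukocytes, rose by 1.56 (adjusted p = 0.00382). Among 13 regulators and receptors 11 were tested, 5 fell and none rose, with a median of -0.98. These were the receptors Mrgprb1 (-3.74, adjusted p = 0.000179) and Mrgprb2 (-2.97, adjusted p = 0.00167), the secretion gene Rab27b (-2.38, adjusted p = 0.000129), the transcription factor Gata2 (-1.92, adjusted p = 0.00172) and the IL-33 receptor Il1rl1 (-1.45, adjusted p = 0.0124). Il1rl1 was higher in the CD45- libraries, at 5582 to 11447 normalised counts, than in the CD45+ libraries, at 630.1 to 4540, and among 67NR CD45+ libraries it was lowest in animals 6 and 7, as was the fibroblast marker sum. Mrgprb2 is the mouse receptor through which basic secretagogues act on connective tissue mast cells, and it ran from 21.1 to 105 normalised counts over the 66cl4 libraries and from 269 to 886 over the 67NR libraries.

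Genes for cytokines that act on mast cells fell in 5 of 8 tested cases, with a median of -1.39 and none that rose. The 4 with the smallest adjusted p were Il33, an alarmin, at -3.23 (adjusted p = 0.000769), Il13 at -2.51 (adjusted p = 0.0333), Csf2 at -1.90 (adjusted p = 0.00435) and Il4 at -1.27 (adjusted p = 0.04). Il33, too, was higher in CD45- cells of each tumour and in 67NR CD45+ libraries was lowest in animals 6 and 7, and the part of stromal cells in these changes was not tested. Histamine handling genes and receptors had 3 of 8 genes tested and none called, with a median of -0.32. Cd200r3 (-2.03, adjusted p = 0.000303) and Cyp11a1 (-2.13, adjusted p = 0.00125), listed as basophil markers but also expressed by mast cells, fell while Mcpt8 was not called.

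The CD45- cells of the tumours were compared next, a fraction that should hold tumour and stromal cells. All 9 members tested fell in 66cl4 relative to 67NR CD45- cells, where 18.9% of 14844 genes tested fell. No tested member overlapped between the groups, and 27.1% of genes tested lay lower in 66cl4 tumours without overlap. Ms4a2, which was not tested, did not overlap either, but its closest libraries lay under the floor of 3 counts. The 66cl4 CD45- libraries held almost no mast cell transcripts. In animals 3 to 7 Cpa3 was at 0, 1.87, 2.50, 11.7 and 12.98 normalised counts, and in 67NR animals 1, 4, 5, 6 and 7 it was at 96.5, 166, 1228, 1812 and 4736. The groups stood far apart, and the 67NR libraries themselves spread widely, with that of animal 7 near the CD45+ level. The Cpa3 mean was 277-fold lower in 66cl4 tumours, with a log2 change of -8.13 ± 1.52 (adjusted p = 0.00138).

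The other proteases shared this pattern library by library. Cma1 was at 0, 0.623, 1.66, 10.6 and 10.98 in 66cl4 and at 145, 110.3, 1105, 1458 and 4230 in 67NR CD45- libraries, 295-fold lower (log2 change -8.25, adjusted p = 0.00127). Mcpt4 was at 0, 1.25, 1.66, 5.31 and 14.97 against 134, 147, 1503, 1868 and 5804, 408-fold lower (log2 change -8.68, adjusted p = 0.00135). Tpsb2 and Tpsab1 were 241-fold and 347-fold lower, with at most 12.98 and 13.97 normalised counts in any 66cl4 library and from 61.4 to 2999.6 and from 71.3 to 4168 in 67NR libraries (adjusted p = 0.00214 and 0.00213). The Tpsab1 ratio of means was 0.00288 with a 95% counting interval of 0.00183 to 0.00463. In each of the 5 proteases 67NR animals 1 and 4 were the low libraries and animal 7 the high one. The sizes of these folds rested on single libraries: without 67NR animal 7 the log2 changes were -7.15 for Cpa3, -7.23 for Cma1, -7.62 for Mcpt4, -6.98 for Tpsb2 and -7.33 for Tpsab1, and without 66cl4 animal 7 they were -9.76 for Mcpt4, -9.01 for Tpsb2 and -9.81 for Tpsab1.

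The IgE receptor chains were at the limit of detection in 66cl4 CD45- cells. Fcer1a had 2 counts over all 5 libraries, against 9.65, 15.8, 171, 196 and 506 normalised counts in 67NR animals 1, 4, 5, 6 and 7, and the ratio of means was 0.00229 with a 95% counting interval of 0.000265 to 0.00794. Ms4a2 also had 2 counts in 66cl4 CD45- libraries and was at 9.65, 1.5004, 26.3, 30.5 and 82.8 in 67NR libraries, a ratio of 0.0108 (interval 0.00157 to 0.048). It was too low in this pair of groups for the test across all genes, and no library of one group overlapped the other (exact two-sided permutation p = 0.00794). Such intervals cover counting error only.

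Hdc and the Kit pair fell as well in CD45- cells. Hdc was at 2.65, 5.61, 34.1, 7.44 and 9.98 in 66cl4 and at 53.5, 36.0, 88.7, 129.7 and 173 normalised counts in 67NR CD45- libraries, so its direction was opposite to that in CD45+ cells. It was 8.04-fold lower, with a log2 change of -2.92 ± 0.61 (adjusted p = 0.00126), which became -3.81 without 66cl4 animal 5 and -3.86 without 66cl4 animals 5 and 6. Kit was at 18.6, 31.8, 28.3, 24.4 and 23.96 against 137, 155, 133, 255 and 345, 8.06-fold lower with a log2 change of -2.95 ± 0.29 (adjusted p = 9.03e-07).

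Kitl had its highest levels in this fraction and little spread within groups. The 66cl4 CD45- libraries held 2345, 1808, 2516, 2218 and 2299 normalised counts and the 67NR CD45- libraries held 13086, 11679, 11966, 12887 and 13171, so the groups were narrow and well separated. The difference was 5.61-fold, with a log2 change of -2.46 ± 0.10 (adjusted p = 8.33e-11). Stromal markers moved in the same comparison, with 7 of 8 endothelial markers lower in 66cl4 tumours (median -3.25) and, of 8 fibroblast markers, 4 lower and 1 higher (median -0.81). Over the 67NR CD45- libraries the summed endothelial markers ran from 1092 to 4425 normalised counts and the summed fibroblast markers from 14461 to 22486. This fraction should also hold cells of the injected lines. Summed epithelial markers ran from 6112 to 6880 in 66cl4 and from 162 to 573 in 67NR CD45- libraries. The part of stromal or tumour cells in the Kitl difference was not tested.

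The other mast cell lists were less complete in CD45- cells. Of the further granule genes 4 were tested and 2 fell, and of the regulators and receptors 9 were tested and 4 fell, among them Gata2 (-2.999, adjusted p = 1.59e-05), which endothelial cells express too. Of 4 cytokine genes tested Il33 fell (-1.98, adjusted p = 1.28e-07) and Tgfb1 rose (1.95, adjusted p = 9e-08). Mrgprb2 had no count in any 66cl4 CD45- library and stood at 9.75 to 253 normalised counts in 67NR CD45- libraries. Of 14 IgE receptor signalling genes tested 8 fell and 1, Lat2, rose, and of 13 Kit signalling genes 2 fell, Socs6 and Pik3cd. Ptprc was 3.55-fold lower in 66cl4 CD45- libraries (log2 change -1.79, adjusted p = 0.0361, called in 5 of 10 fits that left out 1 library), and 3 of 7 macrophage and 2 of 6 neutrophil markers tested fell there while 1 of 2 B cell markers rose. The part of these cells in the member results was not tested.

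Within 66cl4 tumours every member was called between the fractions. Of the 10 genes 9 were higher and 1, Kitl, lower in CD45+ than in CD45- cells, where 23.9% of 14916 genes tested were higher and 20.5% lower. From the counts given above, Cpa3 was 156-fold higher (log2 change 7.29 ± 0.55, adjusted p = 2.17e-07) and Hdc 433-fold higher (8.65 ± 0.58, adjusted p = 8.39e-08), with no overlap in either. Cma1, Mcpt4 and Tpsb2 were 151-fold, 88.5-fold and 67.5-fold higher, and Tpsab1 32.6-fold (95% counting interval 22.3 to 57.2, log2 change 5.00, adjusted p = 0.000257). With animal 7 left out of the CD45- group, the log2 changes were 7.87 for Cma1, 7.58 for Mcpt4, 7.20 for Tpsb2 and 6.43 for Tpsab1, that of Hdc was 9.60 without the CD45- library of animal 5, and that of Tpsab1 was 4.38 without the CD45+ library of animal 5 and 3.97 without animals 5 and 6. In animal 7 the CD45- level was 66.1% of the CD45+ level for Tpsab1, 11.2% for Tpsb2 and 10.4% for Mcpt4. The ratio for Fcer1a was 157 (95% counting interval 49.1 to 1483) and that for Ms4a2 77.2 (18.6 to 572), both resting on 2 counts in the CD45- libraries. Kit was 17.2-fold higher (4.05 ± 0.27, adjusted p = 4.97e-08), and Kitl was 10.8-fold lower (-3.45 ± 0.25, adjusted p = 1.3e-07).

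In 67NR tumours the same sort divided the mast cell genes incompletely. Of the 10 genes 6 were called higher in CD45+ cells and Kitl lower, where 20.2% of 15063 genes tested were higher and 19.6% lower, and 3 proteases were not called. As a percentage of the CD45+ level of the same tumour, the CD45- level of the 5 proteases summed was 2.52% in animal 1, 1.95% in animal 4, 20.4% in animal 5, 29.4% in animal 6 and 87.5% in animal 7. Fcer1a and Ms4a2 summed gave 2.72%, 1.80%, 19.3%, 26.5% and 88.6% in the same animals. The proteases and the receptor chains thus spread over the tumours alike, from a nearly complete division in animals 1 and 4 to nearly equal levels in animal 7.

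Ptprc, macrophage and neutrophil transcripts spread over a narrower range. In animals 1, 4, 5, 6 and 7 the CD45- level of Ptprc was 1.22%, 2.98%, 0.669%, 1.17% and 0.669% of the CD45+ level. The sum of 8 macrophage markers gave 2.28%, 5.68%, 2.04%, 2.41% and 1.06%, and that of 10 neutrophil markers 1.86%, 3.37%, 5.30%, 6.31% and 9.26%. In animal 7, where 87.5% of the protease level was found again in CD45- cells, the macrophage share was the lowest of the 5 animals and the neutrophil share the highest. Among other mast cell genes the shares were 2.62%, 3.30%, 13.01%, 25.9% and 91.4% for Mrgprb1 and 3.87%, 1.10%, 16.7%, 28.03% and 94.1% for Mrgprb2. These lay close to the protease shares, whereas Hpgds, at 2.13% to 7.56%, and Srgn, at 1.396% to 4.79%, both also expressed by other leukocytes, did not follow them. Gata2 stood at 31.9%, 18.7%, 63.9%, 69.1% and 104%, and the summed basophil markers, which include Cd200r3 and Cyp11a1, at 23.2%, 10.3%, 47.1%, 63.4% and 111%. The part that each cell type had in this division was not tested.

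Hdc and Kit were divided to other degrees in 67NR tumours. Hdc gave 2.12%, 3.24%, 8.85%, 14.9% and 55.4% in animals 1, 4, 5, 6 and 7, below the protease share in animals 1, 5, 6 and 7 and above it in animal 4. Kit gave 26.2%, 19.3%, 25.0%, 48.8% and 64.1%, and was thus less divided than the proteases in every animal except animal 7. In 66cl4 tumours the corresponding shares were small, at 0% to 5.83% for the proteases, 0.0408% to 0.387% for Hdc and 4.14% to 10.3% for Kit.

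**Figure D5:**
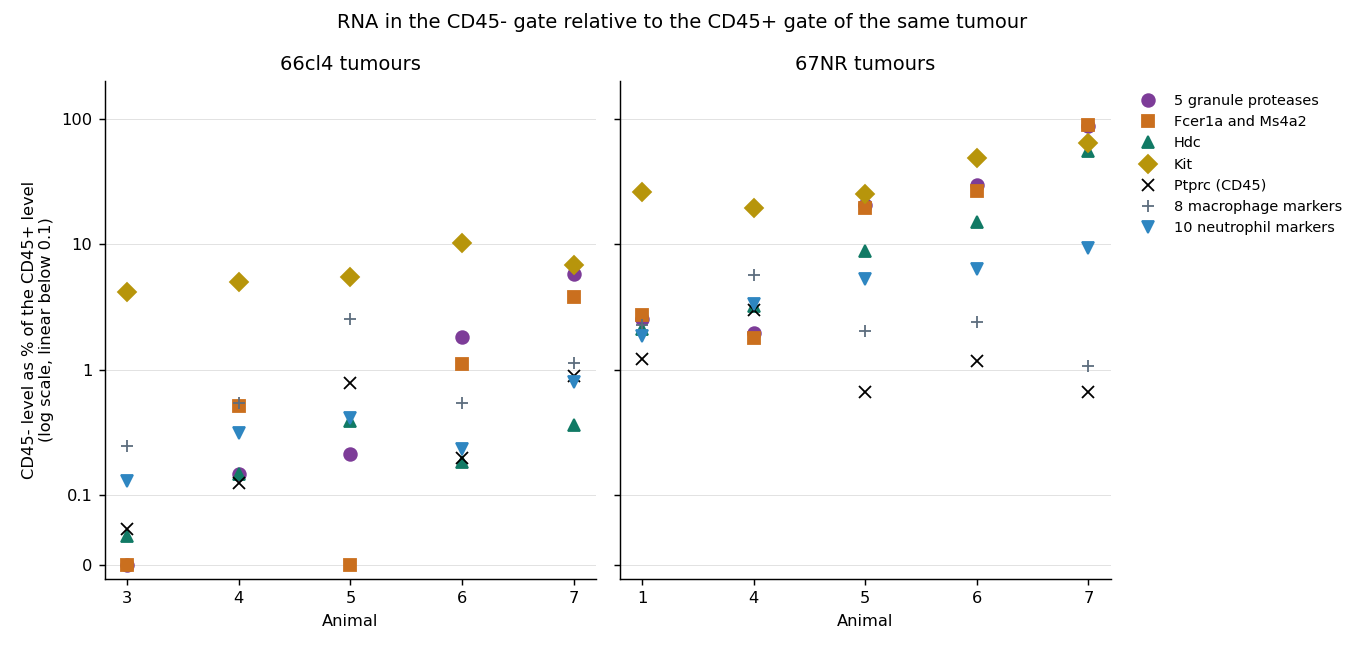
CD45- level as a percentage of the CD45+ level of the same tumour for each animal, for the mast cell genes, Ptprc and summed macrophage and neutrophil markers, each marker 1 tumour. In 67NR tumours the protease share runs from 1.95% to 87.5% while Ptprc stays between 0.669% and 2.98%.

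The tests reflect this spread between 67NR tumours. Cpa3 was 4.46-fold higher in CD45+ cells (log2 change 2.16 ± 0.82, adjusted p = 0.0361), Cma1 3.91-fold (1.96 ± 0.79, adjusted p = 0.046) and Fcer1a 3.83-fold (1.95 ± 0.77, adjusted p = 0.0422). Mcpt4 was 3.43-fold higher (1.78 ± 0.83, adjusted p = 0.0776), Tpsb2 3.12-fold (1.64 ± 0.83, adjusted p = 0.102) and Tpsab1 2.59-fold (1.36 ± 0.88, adjusted p = 0.19), none of which passed. With all 20 libraries in 1 fit Mcpt4 passed (1.80, adjusted p = 0.035). Both fractions came from the same animals, and with the animal as a block all 10 genes passed, with log2 changes of 2.95 for Mcpt4 (adjusted p = 0.0272), 2.68 for Tpsb2 (adjusted p = 0.035) and 2.52 for Tpsab1 (adjusted p = 0.0353). Leaving the CD45- library of animal 7 out, the same 3 genes also passed, at 2.82 (adjusted p = 0.00677), 2.60 (adjusted p = 0.0131) and 2.45 (adjusted p = 0.0214), and the log2 changes of Cpa3, Cma1, Fcer1a and Ms4a2 were 3.11, 2.96, 2.80 and 3.17. The calls for Cpa3, Cma1 and Fcer1a held in 5, 2 and 4 of the 10 fits that left out 1 library. They were lost without the CD45+ library of animal 4, 5 or 6 or the CD45- library of animal 5 or 6 (highest adjusted p = 0.0773 for Cpa3, 0.0934 for Cma1 and 0.0805 for Fcer1a), and without the filter on low counts (adjusted p = 0.116, 0.137 and 0.13). The Fcer1a call also needed the CD45- library of animal 4, and that of Cma1 the CD45- library of animal 1 and the CD45+ libraries of animals 1 and 7.

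The remaining members were called more firmly. Ms4a2 was 5.09-fold higher in CD45+ cells of 67NR tumours (2.37 ± 0.64, adjusted p = 0.00624), Hdc 12.1-fold (3.61 ± 0.58, adjusted p = 0.000186) and Kit 2.85-fold (1.51 ± 0.28, adjusted p = 0.000491), while Kitl was 4.04-fold lower (-1.999 ± 0.42, adjusted p = 0.00122). The CD45+ level of Kitl as a percentage of the CD45- level was 35.5%, 42.9%, 28.5%, 12.8% and 6.28% in 67NR animals 1, 4, 5, 6 and 7 and 4.63%, 15.6%, 5.75%, 11.6% and 10.6% in 66cl4 animals 3 to 7. The ranges overlapped, and 67NR animals 1, 4 and 5 lay above every 66cl4 animal.

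The proportions of mast cell transcripts in 67NR tumours also differed between the fractions of some animals. In animal 1 Cma1 was 74.3% of the Cpa3 count in CD45+ and 149.8% in CD45- cells, Tpsab1 28.8% and 82.8%, and Kit 7.93% and 142%. Animal 4 did not share the first 2 shifts, with Cma1 at 76.9% and 66.6% and Tpsab1 at 41.7% and 43.1%, while Kit was at 9.72% and 93.2%. The CD45- values rested on Cpa3 counts of 110 in animal 1 and 221 in animal 4. In animal 7, where the fractions held similar levels, the values were 87.3% and 89.3% for Cma1, 96.5% and 88.0% for Tpsab1 and 9.91% and 7.29% for Kit. Relative to Cpa3, Mcpt4 and Fcer1a stood higher in the CD45- library in 5 of 5 animals, Cma1 and Tpsab1 in 4, Tpsb2 in 3 and Ms4a2 in 2. Hdc stood higher in 2 and Kit in 4 of the 5 animals. Kit was also counted, at 18.6 to 31.8 normalised counts, in 66cl4 CD45- libraries, where Cpa3 reached at most 12.98. The part of other cells in the Kit ratios was not tested.

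Whether the tumour difference itself differed between fractions depended on the fit for several members. In the fit with an interaction of tumour and fraction, 9 of 10 genes passed, where 43.1% of 16453 genes tested did, so this count is read against a high background. The difference of log2 changes, that in CD45+ minus that in CD45- cells, was 5.15 for Cpa3 (adjusted p = 0.00209), 5.31 for Cma1 (adjusted p = 0.00187), 5.07 for Hdc (adjusted p = 6.47e-05) and 2.55 for Kit (adjusted p = 4.09e-05), and Tpsab1 was not called (3.66, adjusted p = 0.0659). With the animal as a block, Cpa3 (4.04, adjusted p = 0.0489), Cma1 (4.25, adjusted p = 0.0406), Hdc (5.31, adjusted p = 0.000739) and Kit (2.45, adjusted p = 0.000236) passed. The calls of Mcpt4 (4.70, adjusted p = 0.00774), Tpsb2 (4.48, adjusted p = 0.0137), Fcer1a (5.10, adjusted p = 0.0172), Ms4a2 (3.33, adjusted p = 0.0304) and Kitl (-1.42, adjusted p = 0.0258) were lost with it, at adjusted p of 0.0967, 0.11, 0.0893, 0.114 and 0.0829. In the block fit 7150 of 16453 genes tested passed, so 4 of 10 members was no higher than the share over all genes. Leaving out 1 of the 20 libraries, Ms4a2 lost its call without 66cl4 CD45+ animal 4, 66cl4 CD45- animal 3, 4, 5 or 6 or 67NR CD45- animal 7 (highest adjusted p = 0.0701), and Kitl without 67NR CD45+ animal 4 (adjusted p = 0.0607). Tpsab1 gained a call without 66cl4 CD45+ or CD45- animal 7 or 67NR CD45- animal 1 or 4 (lowest adjusted p = 0.0269).

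Patterns over all 20 libraries were last compared as the root mean square difference of centred log2 CPM, among the 16453 genes tested. The genes nearest to Cpa3 were Cma1 at 0.28, Mcpt4 at 0.61, Tpsb2 at 0.62, Fcer1a at 1.024 and Mrgprb1 at 1.08, so 4 of the 5 were members. Tpsab1 ranked seventh and Ms4a2 sixteenth by likeness to Cpa3, whereas Kit ranked 200th at 2.38 and Hdc 560th at 2.63. In the other direction Cpa3 ranked 13622nd by likeness to Kit and 2198th by likeness to Hdc. Nearest to Hdc were Pygl at 0.67, Rab44 at 0.76, Mmp8, a neutrophil collagenase, at 0.80, Osm at 0.81 and Slc2a6 at 0.83. Nearest to Kit were Adcy7 at 0.47, Papss2 at 0.49, Adam19 at 0.52, Rora at 0.54 and Zfp709 at 0.54, and nearest to Kitl were Medag at 0.30, Gm13544 at 0.30, Eda2r at 0.35, Gm47034 at 0.38 and 4930519F16Rik at 0.40. None of the genes nearest to Hdc, Kit or Kitl was a member.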

How the data were processed

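RNA from sorted CD45+ and CD45- cells of 66cl4 and 67NR tumours was made into SENSE mRNA-Seq libraries and sequenced as single reads. The authors trimmed reads with fastp, estimated counts with Salmon (version 1.3.0) and summarised them per gene with tximport, and these expected counts were deposited unnormalised, as 1 table of 52783 Ensembl mouse genes. The sources used here name the human build GRCh38 although the identifiers are mouse, and the mouse annotation used is not given in the sources used here. Base calls were converted with bcl2fastq (version 2.2.20), per the labels.

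Expected counts were rounded and tested with edgeR 4.0.16 in R 4.3.3 (TMM factors, filterByExpr at min.count 10 and min.total.count 15, robust quasi-likelihood). Each comparison was fitted on its own 10 libraries, and the interaction of tumour and fraction on all 20. A gene was called at a Benjamini-Hochberg adjusted p below 0.05 and a log2 change beyond 1 (interaction: adjusted p alone). Levels were counts over DESeq2 1.42.0 size factors, TPM used the longest protein-coding transcript of GENCODE M21, and 2.58% of counts lay in genes without a length there. Ratios to Cpa3 took counts plus 0.5 and exact two-sided permutation tests in SciPy 1.17.1. Intervals were exact at 95% and cover counting error only.

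Samples were grouped by title. For the CD45- library of 66cl4 animal 5 the title reads negCD46 and the count column negCD45, and it was taken as CD45-. The fractions of a tumour share an animal, which the titles give, and their deviations from the group means correlated at 0.0251 to 0.148 for the 66cl4 animals and -0.00328 to 0.324 for the 67NR animals; across tumours only the number is shared. No pair of libraries agreed within sampling noise (chi-square per degree of freedom at least 12.3). Each library is 1 tumour of 1 mouse. The genes named are the 10 members, Ptprc, up to 4 called genes of each other list with the smallest adjusted p, and the 5 genes nearest in pattern to Cpa3, Hdc, Kit and Kitl; Fcer1g, Cblb, Btk, Socs1, Ptpn6, Il1rl1 and the markers Mcpt8 and Prss34 were named after their values were seen. The members, the lists and the tests were chosen with earlier results of these data known. Alternatives were DESeq2, other size factors, another filter and none, all 20 libraries in 1 fit, the animal as a block, another pseudocount and denominator, and leaving out single libraries or 66cl4 animals 5 and 6. On simulated counts for the CD45+ comparison (14487 genes), edgeR recovered 174 of 200 changed genes and 2.25% of its calls were false. DESeq2 recovered 187 there, with 6.97% of its calls false. Between the fractions of 67NR tumours edgeR recovered 181 with 2.69% false, and DESeq2 188 with 10.9% false. Each simulation changed 200 genes by 2 on the log2 scale, in libraries drawn independently. The real fractions share animals and 5992 genes were called between them in 67NR tumours, so these false shares may not carry over.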

Additional observations from a re-analysis of the deposited data

Results flagged for a closer look

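Each member's 4 groups of 5 libraries were examined for a library far from the rest, 40 groups in all, of which chance marks about 1 in 20. In 4 groups 1 library stood apart. Tpsab1 was at 13.97 normalised counts in 66cl4 CD45- animal 7, against 0 to 3.19 in the other 4 libraries, and at 4168 in 67NR CD45- animal 7, against 71.3 to 1189. Hdc was at 34.1 in 66cl4 CD45- animal 5, against 2.65 to 9.98. Kit was at 801 in 67NR CD45+ animal 4, against 523 to 538.

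By the edgeR interaction test the tumour difference in CD45+ cells differed from that in CD45- cells for 9 members. Among all 16453 genes tested, 43.1% passed the same test. The members' differences of log2 changes were 5.15 for Cpa3, 5.31 for Cma1, 4.70 for Mcpt4, 4.48 for Tpsb2, 5.10 for Fcer1a, 3.33 for Ms4a2, 5.07 for Hdc, 2.55 for Kit and -1.42 for Kitl. With the animal as a block, since both fractions came from the same mice, Cpa3, Cma1, Hdc and Kit passed and the other 5 did not (adjusted p 0.0829 to 0.114). In that fit 7150 of 16453 genes tested passed. Hdc alone among the 9 members was higher in 66cl4 tumours in 1 fraction and lower in the other.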

How the results depend on the processing

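The tumour differences of the members in CD45+ cells were called for 9 of 10 genes in every fit that left out 1 library. Without 66cl4 animals 5 and 6 the number was 8, the Hdc call being lost. The divisions between fractions in 67NR tumours and the interaction were less stable. In 67NR tumours 7 members were called, 4 without the filter on low counts and 4 to 10 when single libraries were left out. For the interaction 9 were called, 10 with DESeq2 (Tpsab1 gained, adjusted p = 0.0264), 6 without the filter (Fcer1a, Ms4a2 and Kitl lost, adjusted p 0.058 to 0.0654), 4 with the replicate block, 4 without 66cl4 animals 5 and 6, and 8 to 10 when single libraries were left out. Of 40 exact tests of member levels 38 had p below 0.05, 31 to 39 without single libraries, and 20 without 66cl4 animals 5 and 6, which leaves groups too small for some comparisons. The share of all genes passing this exact test was not computed, so these counts show stability and not a trait of the members. Of the ratios to Cpa3, 6 differed, Hdc and Kit among them, and 5 to 7 did without single libraries. Leaving out single libraries moved the count of all genes called from 1736 to between 1507 and 1880 in CD45+ cells (members 9), from 4774 to between 4797 and 5070 in CD45- cells (members 9 to 10), from 6621 to between 6698 and 7020 between fractions of 66cl4 tumours (members 10), from 5992 to between 6022 and 6461 in 67NR tumours, and from 7098 to between 6571 and 7320 for the interaction. The Fcer1a ratio turned to 0.058 against summed proteases. The Cma1 ratio, at 0.03, turned to -0.0044 and -0.0094 without the CD45+ libraries of 66cl4 animals 3 and 7 and to -0.0037 without that of 67NR animal 6; the cause was not tested. The replicate block changed no member call beyond those given for 67NR tumours and the interaction; between tumours, where only a number is shared, it gave 1340 genes called in CD45+ and 4766 in CD45- cells with 9 members in each. DESeq2 moved the median log2 change of all genes to -0.20 in CD45- cells, 0.16 between fractions of 66cl4 tumours and 0.18 for the interaction. Depth limits the IgE receptor chains in 66cl4 CD45- cells, at 2 counts each.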
